A study of Homo sapiens with 36 samples.

Results

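The subunits of the mitochondrial respiratory chain and ATP synthase were followed across 12 groups of HK-2 cells. Members were the genes whose platform symbol matched NDUFA, NDUFB, NDUFC, NDUFS or NDUFV plus a number (complex I), SDHA to SDHD (complex II), the UQCR prefix (complex III), the COX4 to COX8 prefixes (complex IV), or the ATP5F1, ATP5M or ATP5P prefixes (complex V), with the NDUFAF assembly factors left out. The rule matched 77 genes, of which 71 were measured among 11092 genes in all. A gene counted as measured where its probe set with the highest mean lay above 4 on the log2 scale on 3 or more arrays. The 71 held 32 of 32 matched members of complex I, 3 of 3 of complex II, 6 of 6 of complex III, 13 of 18 of complex IV and 17 of 18 of complex V. Among them 70 were protein-coding genes, and the other was ATP5MC2P1, a processed copy of ATP5MC2. The 6 matched members that did not reach the level were ATP5MF, COX6A1P1, COX6B2, COX7A1, COX7B2 and COX8C, whose highest value on any array was 3.01 (ATP5MF). Each measured member lay above 4 on all 36 arrays, so none passed through 1 group alone. COX6A2 and COX4I2, muscle and lung forms of complex IV subunits, had means of only 4.23 and 4.33, near that floor.

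HK-2 cells are an immortalized human line from the epithelium of the proximal tubule of the kidney, and the whole study rests on this 1 line. One set of 18 arrays covered CdCl, Di and vehicle, each given for 12 h or for 48 h. Another set of 18 held cells exposed to Kbr at a low or a high dose, or to vehicle, for 24 h or 48 h, and each of the 12 groups had 3 arrays from biological replicates per the labels. The labels do not spell out the compound names or give a concentration, and all groups grew in a defined medium with epidermal growth factor, hydrocortisone, insulin and transferrin. Controls are called by their set below, since each set had its own. The labels do not say whether the replicates were separate passages, so p-values measure the spread between these samples only.

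Complex I takes electrons from NADH and complex II from succinate, and both pass them to ubiquinone. Complex III moves them on to cytochrome c and complex IV to oxygen, while complexes I, III and IV pump protons that complex V, the ATP synthase, lets back to make ATP. Nearly all subunits are coded in the nucleus and imported, and a small core of complexes I, III, IV and V is coded by mitochondrial DNA. Proximal tubule cells in the kidney depend on this pathway for transport, and cultured tubular lines rely more on glycolysis.

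Promoters are shown for 5 members that lead the results. NDUFS7, NDUFA7 and ATP5MC2 had 3 of the 4 largest falls under high dose Kbr at 48 h, and NDUFV3 and UQCRC1 had the largest rises under CdCl at 48 h. Each is the 250 bases before a RefSeq transcription start in GRCh38.p14, 5′ to 3′ on the gene's strand. They lie at chr19:1383657-1383906 on the plus strand (NDUFS7), chr19:8321376-8321625 on the minus strand (NDUFA7), chr12:53676084-53676333 on the minus strand (ATP5MC2, the first listed of 3 starts), chr21:42893059-42893308 on the plus strand (NDUFV3) and chr3:48609647-48609896 on the minus strand (UQCRC1). Capitals mark a match, on either strand, to ACGTG, the core letters of a hypoxia response element and of an E-box, or in UQCRC1 to TGACNNNGC, the core letters of an antioxidant response element.
NDUFS7: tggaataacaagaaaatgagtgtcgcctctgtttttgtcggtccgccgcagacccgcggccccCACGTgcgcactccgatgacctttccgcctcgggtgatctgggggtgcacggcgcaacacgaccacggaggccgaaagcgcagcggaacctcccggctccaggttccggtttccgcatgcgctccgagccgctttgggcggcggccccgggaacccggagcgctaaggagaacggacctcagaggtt
NDUFA7: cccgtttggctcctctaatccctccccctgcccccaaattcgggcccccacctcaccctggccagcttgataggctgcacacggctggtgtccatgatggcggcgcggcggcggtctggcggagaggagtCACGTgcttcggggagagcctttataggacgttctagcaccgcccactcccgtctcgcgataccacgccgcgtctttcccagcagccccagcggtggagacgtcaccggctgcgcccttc
ATP5MC2: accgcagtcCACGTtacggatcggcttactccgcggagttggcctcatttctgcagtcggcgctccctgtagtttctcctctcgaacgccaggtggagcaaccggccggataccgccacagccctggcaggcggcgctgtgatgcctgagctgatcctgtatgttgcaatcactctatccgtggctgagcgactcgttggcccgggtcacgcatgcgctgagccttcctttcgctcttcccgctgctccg
NDUFV3: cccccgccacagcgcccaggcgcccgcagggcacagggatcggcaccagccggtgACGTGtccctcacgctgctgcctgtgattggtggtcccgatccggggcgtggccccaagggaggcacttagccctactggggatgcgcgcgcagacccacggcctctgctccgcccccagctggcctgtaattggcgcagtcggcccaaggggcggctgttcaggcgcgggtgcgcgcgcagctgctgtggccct
UQCRC1: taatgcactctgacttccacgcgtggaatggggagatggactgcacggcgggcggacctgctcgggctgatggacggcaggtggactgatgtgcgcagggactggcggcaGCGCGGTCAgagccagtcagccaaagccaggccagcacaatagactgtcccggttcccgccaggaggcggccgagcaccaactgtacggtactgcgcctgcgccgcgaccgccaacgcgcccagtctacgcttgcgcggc
Over the 61 measured members with a promoter in the table, ACGTG stood in 26.2% and TGACNNNGC in 11.5%, against 21.7% and 13.2% of 27305 genes. CCGGAAG, the letters of an ETS factor site such as that of GABPA, stood in 26.2% of members against 10.2% of all genes. The palindromic NRF1 motif stood in 4.92% against 1.28%. TCAAGGTCA, the letters read by estrogen-related receptors, stood in 0 of 61 against 0.388%. Both strands were searched, and overlaps between motifs were not removed. Of the 38 members with a promoter that fell under high dose Kbr at 48 h, 11 held CCGGAAG and 12 held ACGTG. Of the other 23, 5 and 4 did. These matches are descriptions of letters and were put to no test.

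Across genes, pairs of arrays correlated at r = 0.983 to 0.996 within a group and at 0.882 to 0.994 between groups. The beta-actin probe sets at the 3' end read higher than those at the 5' end. That gap, which grows as RNA is degraded or copied incompletely, averaged 1.40 to 1.84 (log2) by group in the CdCl and Di set and 0.866 to 1.06 in the Kbr set. It was 1.40 ± 0.16 (SD, n = 3) under Di at 12 h against 1.84 ± 0.14 (SD, n = 3) in its control. The markers PAX8, CDH6, SLC4A4 and SLC3A1 of the renal tubule and KRT8, KRT18, KRT19, EPCAM and CDH1 of epithelium lay above 4 on every array. The mature proximal tubule proteins LRP2, CUBN, AQP1, ANPEP, GGT1, SLC34A1 and SLC5A2 lay below 4 on every array. The endothelial and leukocyte markers CDH5, VWF, PTPRC and CD3E also lay below 4, and PECAM1 reached at most 4.15. DCN, a fibroblast marker, ranged from 9.73 to 12.4, while PDGFRB lay below 4. In bulk samples, a smaller share of cells expressing a gene and less of its RNA per expressing cell cannot be told apart.

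In the fit of all 12 groups, high dose Kbr at 48 h lowered more of the subunits than any of the other 7 comparisons with control. There 41 of 71 members fell and 4 rose against control, with the falls spread over all 5 complexes. NDUFS7, which carries the last iron-sulfur cluster on the way to ubiquinone, fell 3.88-fold. NDUFA7, an accessory subunit of complex I, fell 2.96-fold, and ATP5MC2, which codes for the c subunit of the ATP synthase rotor, fell 2.36-fold. The rises were small and all in complex I.

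Over all genes, 34.5% were called down and 27.3% up in that comparison (61.8% in either direction, limma with Benjamini-Hochberg adjusted p under 0.05). The members were called down in 57.7% and up in 5.63%. Their median log2 difference was -0.26, against -0.06 over all genes. When each array was centred on its own median, 28 members (39.4%) were called down and 6 (8.45%) up, against 30.4% and 31.6% of all genes. Fitted on the 2 compared groups only, 25 members (35.2%) were called down and 2 up, against 28.9% and 21.7% of all genes. In such fits CdCl at 12 h lowered 27 members (38.0%), more than high dose Kbr at 48 h, but the share of all genes was not computed there. The median over all genes was itself -0.16 under CdCl at 12 h, and centred arrays left 1 fall among members. In 37 of the 45 called members (82.2%), the 3 high dose arrays did not overlap the 3 control arrays, against 90.6% of all called genes.

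By complex, 18 of 32 members of complex I fell, 1 of 3 of complex II, 5 of 6 of complex III, 6 of 13 of complex IV and 11 of 17 of complex V. The median log2 difference was -0.27 in complex I, -0.36 in complex III, -0.14 in complex IV and -0.26 in complex V. Complex II had a median of -0.09, with SDHC, a membrane anchor, at -0.43 ± 0.09 SE. The differences between complexes were not tested. In ATP5F1C, NDUFB2, NDUFC1 and UQCR11 another kept probe set read the opposite direction under high dose Kbr at 48 h, both differences exceeding 0.2 in size. The counts by complex hold for the probe set with the highest mean.

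**Figure D1:**
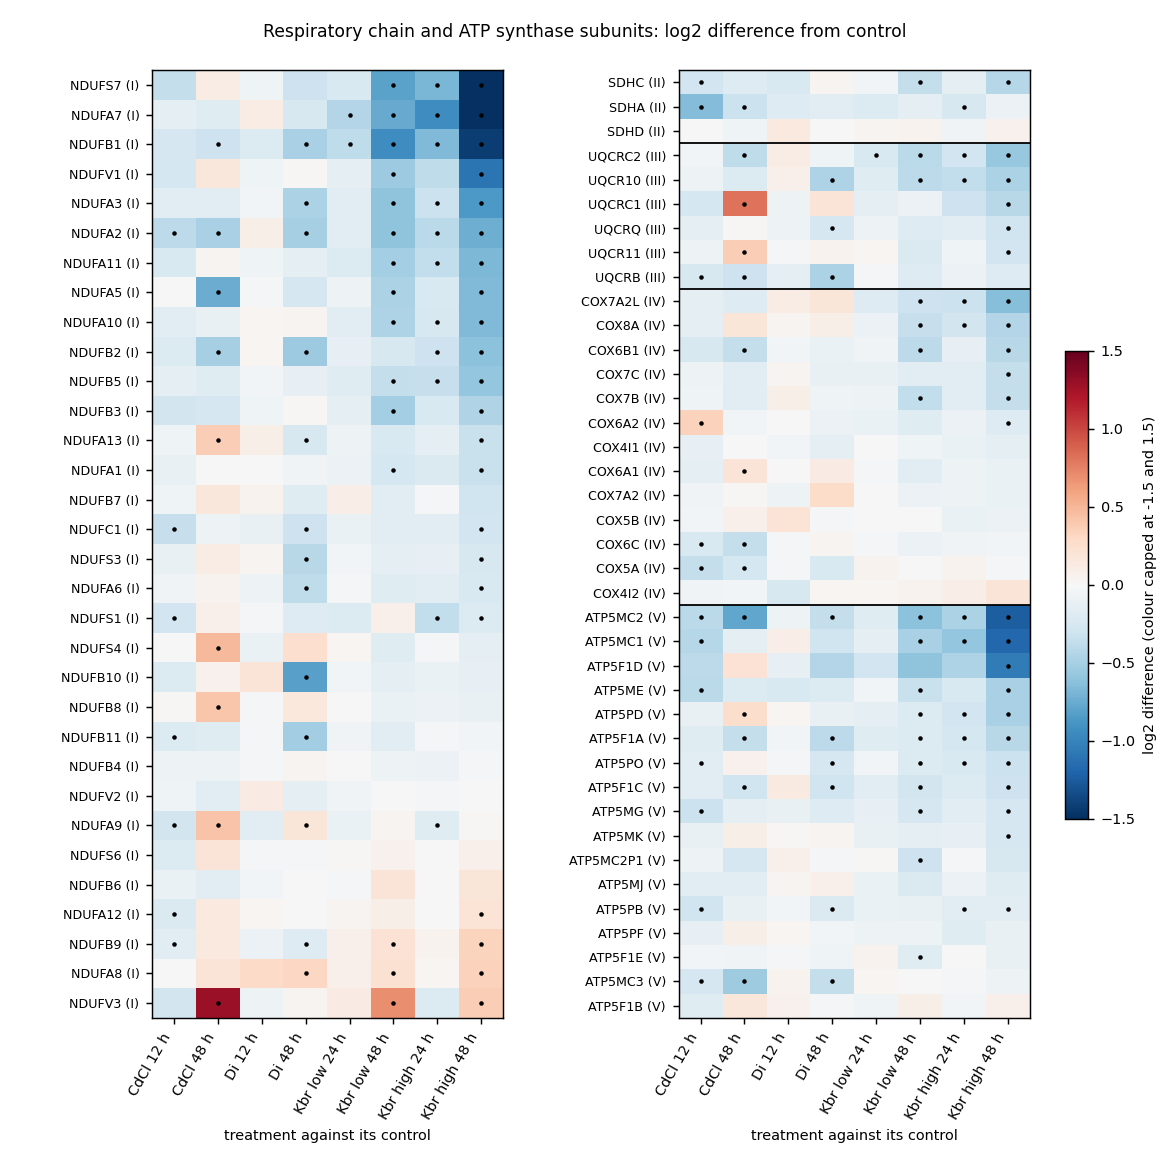
Log2 difference from the control of the same set and time for the 71 measured subunits (rows, complex in brackets, ordered within a complex by the value under high dose Kbr at 48 h) in 8 comparisons (columns). A black dot marks an adjusted p under 0.05, colours are capped at -1.5 and 1.5, and the column of high dose Kbr at 48 h holds 41 falls and 4 rises past the test.

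In the 3 control arrays of the Kbr set at 48 h, NDUFS7 read 9.52, 8.88 and 9.11 on the log2 scale. It read 8.51, 8.26 and 8.35 under the low dose and 7.01, 7.06 and 7.58 under the high dose. The groups formed 3 steps with no overlap, and the high dose stood below every other array of the study. The difference from control was -1.96 ± 0.15 (SE, 3 arrays against 3, adjusted p = 1.11e-11) for the high dose and -0.80 ± 0.15 (adjusted p = 8.5e-05) for the low dose. At 24 h the control read 9.18, 8.89 and 9.08, the low dose 8.95, 8.59 and 8.91 and the high dose 8.31, 8.25 and 8.54. Only the high dose was clear of its control at that time, at -0.68 ± 0.15 (adjusted p = 0.000659), and the low dose at -0.23 did not pass. CdCl and Di left NDUFS7 between 8.10 and 8.78 on their 12 arrays against 8.46 to 8.66 on the 6 arrays of their controls, with no call against control for either.

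NDUFA7 moved at all 4 combinations of dose and time. The control read 9.91, 9.98 and 9.77 at 24 h, where the low dose read 9.41, 9.44 and 9.50 and the high dose 8.92, 8.90 and 9.04. At 48 h the control read 9.92, 9.92 and 9.99, the low dose 9.13, 9.16 and 9.28 and the high dose 7.98, 8.37 and 8.79. None of the 3 groups overlapped another at either time, and replicate 3 of the high dose stood highest of its group at 48 h. The differences were -0.44, -0.93, -0.75 and -1.56 for low 24 h, high 24 h, low 48 h and high 48 h, each with an SE of 0.13 and past the test. It was 1 of 3 members, with NDUFB1 and UQCRC2, a core protein of complex III, called in all 4 Kbr comparisons. Under the low dose at 24 h these were at -0.38 ± 0.12 and -0.23 ± 0.07.

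The c subunit of the ATP synthase is made from 3 genes, ATP5MC1, ATP5MC2 and ATP5MC3, whose mature products are identical. ATP5MC2 read 12.79, 12.42 and 12.49 in the 48 h control, 11.96, 11.85 and 12.06 under the low dose and 11.27, 11.17 and 11.54 under the high dose. ATP5MC1 read 9.17, 9.31 and 9.47 in control and 7.87, 8.10 and 8.46 under the high dose. ATP5MC3 read 12.97, 13.11 and 13.22 in control against 12.79, 13.13 and 13.16, and the arrays overlapped. ATP5MC2 and ATP5MC1 lay below control on every high dose array, at -1.24 ± 0.10 (adjusted p = 2.99e-11) and -1.18 ± 0.14 (adjusted p = 2e-08), and ATP5MC3 was not called at -0.08.

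**Figure D2:**
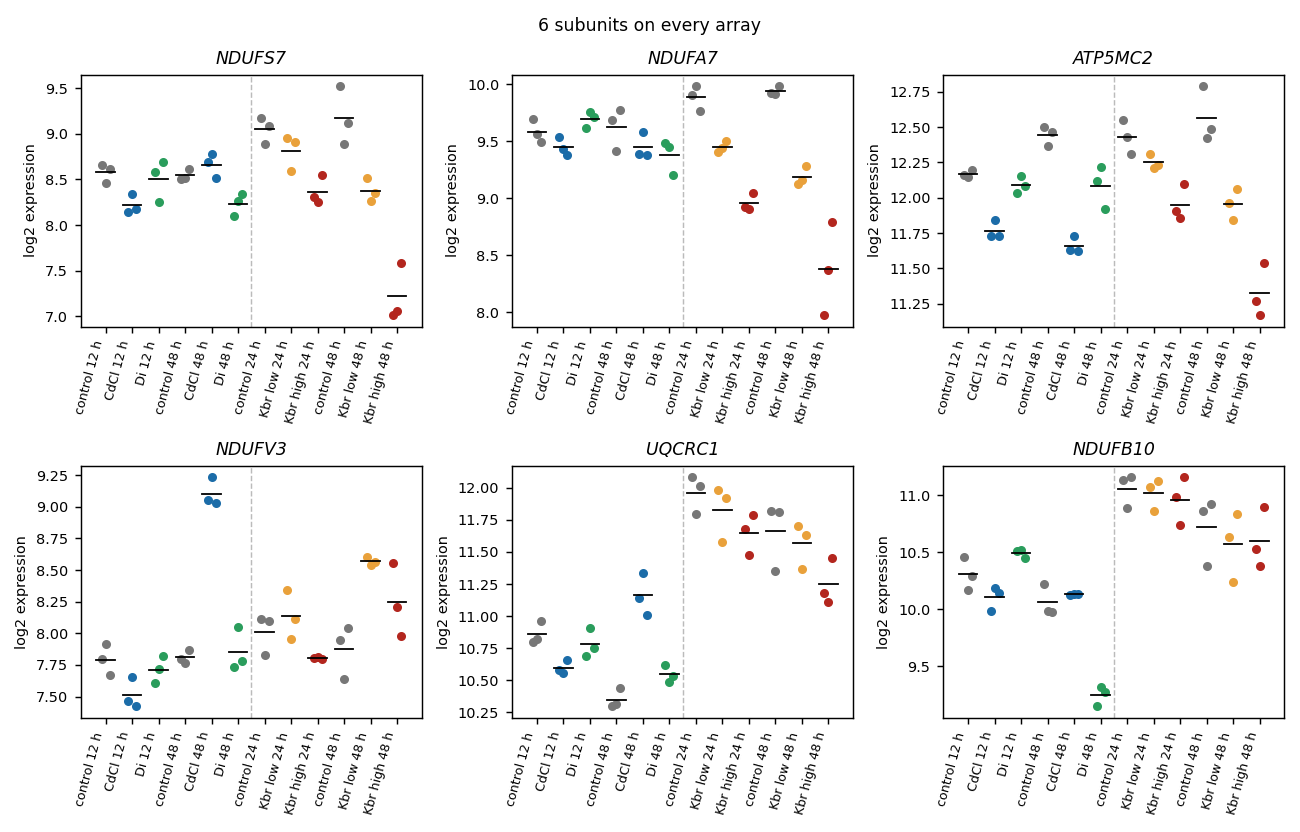
Log2 expression of NDUFS7, NDUFA7, ATP5MC2, NDUFV3, UQCRC1 and NDUFB10 on each of the 36 arrays (points, left to right replicates 1 to 3) with the group mean (bar); the dashed line parts the CdCl and Di set from the Kbr set and the vertical axes do not start at 0. NDUFS7 and NDUFA7 step down with the dose of Kbr at 48 h, NDUFV3 stands high under CdCl at 48 h at 9.03 to 9.23, and NDUFB10 stands low under Di at 48 h at 9.15 to 9.32.

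Other falls past 2-fold under high dose Kbr at 48 h were in NDUFB1, NDUFV1 and ATP5F1D. NDUFB1, a small accessory subunit, read 12.23, 12.31 and 12.34 in control and 10.66, 10.77 and 11.18 under the high dose (-1.42 ± 0.12), and its second kept probe set read a difference of only -0.10. NDUFV1, which holds the flavin that accepts electrons from NADH, read 10.91, 10.27 and 10.75 in control and 9.64, 9.22 and 9.78 (-1.10). ATP5F1D, the delta subunit of the ATP synthase stalk, read 9.39, 8.39 and 9.14 in control and 8.03, 7.34 and 8.39 (-1.05 ± 0.31, adjusted p = 0.00458). Its values overlapped between groups, with replicate 2 lowest in each Kbr group, and it was the member with the widest spread among these 7 falls. With the replicate number as a block ATP5F1D was also called under the low dose at 48 h (-0.60, adjusted p = 0.00023, against 0.116 without it) and under the high dose at 24 h (-0.46, 0.00323 against 0.251).

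The members that rose under high dose Kbr at 48 h were NDUFV3 (0.37), NDUFA8 (0.35), NDUFB9 (0.33) and NDUFA12 (0.20), accessory subunits of complex I. NDUFV3 was higher under the low dose, at 8.61, 8.54 and 8.56 against 7.95, 7.64 and 8.05 in control (0.69), than under the high dose at 8.55, 8.21 and 7.98. ATP5F1A, the alpha subunit of the ATP synthase head, fell by 0.41 under the high dose on the log2 scale, while ATP5F1B, the catalytic beta subunit, was at 0.07 and was not called. COX4I1, a large nuclear subunit of complex IV, was at -0.14 and was not called, although a dimmer probe set of the same gene read 2.06.

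At 24 h high dose Kbr lowered 22 of 71 members and raised 0, where 25.3% of all genes were called down and 15.4% up (40.7% in all). With each array centred, 8 members (11.3%) fell, a smaller share than the 19.9% of all genes, and 20.7% of all genes rose. Fitted on the 2 compared groups only, 11 (15.5%) fell and 0 rose, against 20.1% and 12.3% of all genes. The low dose lowered 3 at 24 h and raised 0, where 8.28% of all genes were called down and 6.93% up (15.2% in all). Centred arrays gave 1, where 7.97% of all genes fell and 6.97% rose. With the replicate number as a block the count of 3 was 7, and fitted on the compared groups only it was 0. It was also 0 without replicate 1 or 2 of the control and 1 without any 1 of the low dose replicates. At 48 h the low dose lowered 29 and raised 3, where 23.2% of all genes were called down and 23.8% up (47% in all), with a member median of -0.18 against 0.00 over all genes. With each array centred, 27 members (38.0%) fell and 2 (2.82%) rose, where 2696 of 11092 genes fell and 2501 rose. Fitted on the 2 compared groups only, 9 members (12.7%) fell and 1 rose, against 15.5% and 15.6% of all genes.

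The Kbr comparisons of 1 time share their control arrays, so their calls are set side by side and not counted as independent. Of the 29 members called down by the low dose at 48 h, 27 were also among the 41 called down by the high dose. Of the 22 called down by the high dose at 24 h, 20 were among the 41 at 48 h. The same overlaps over all genes were not computed, so neither sets the members apart from other genes. Values below control in all 4 Kbr comparisons were seen in 50 members (70.4%), against 37.8% of all genes, with no test.

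The doses were also compared directly. At 48 h the high dose lay below the low dose in 11 members and above it in 0, where 17.3% of all genes were called lower and 6.46% higher (23.8% in all). The median over all genes moved by 0.126 when arrays were centred, so changes are given relative to it: 6 members were then lower and 1 higher, where 11.2% of all genes were lower and 13.5% higher. Fitted on the 2 compared groups only, 2 members were called. NDUFS7 was lower by -1.03 (adjusted p = 7.41e-06), NDUFA7 by -0.69, ATP5MC1 by -0.57, ATP5MC2 by -0.50, NDUFV1 by -0.43 and NDUFB1 by -0.37, and NDUFB9 was higher by 0.24. At 24 h only NDUFA7 was called (-0.49 ± 0.13, adjusted p = 0.024), where 3.71% of all genes were called lower and 0.685% higher (4.39% in all). That single call was lost with centred arrays, in a fit of the compared groups only and on leaving out high dose replicate 1 or 2 or low dose replicate 2 or 3, and 6 members were called with the replicate block.

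From 24 h to 48 h the effect of high dose Kbr grew more negative in 8 members and less so, or positive, in 2, where 8.1% of all genes changed downward and 6.89% upward (15% in all). NDUFS7 changed by -1.27 ± 0.21, NDUFB1 by -0.76, ATP5MC2 by -0.76 and NDUFV1 by -0.71. NDUFV3 moved the other way by 0.57 and NDUFB9 by 0.28. The count of 10 was 2 in a fit of the compared groups only, 3 without control replicate 3 at 24 h, 5 without high dose replicate 3 at 24 h and 4 without high dose replicate 1 at 48 h.

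**Figure D3:**
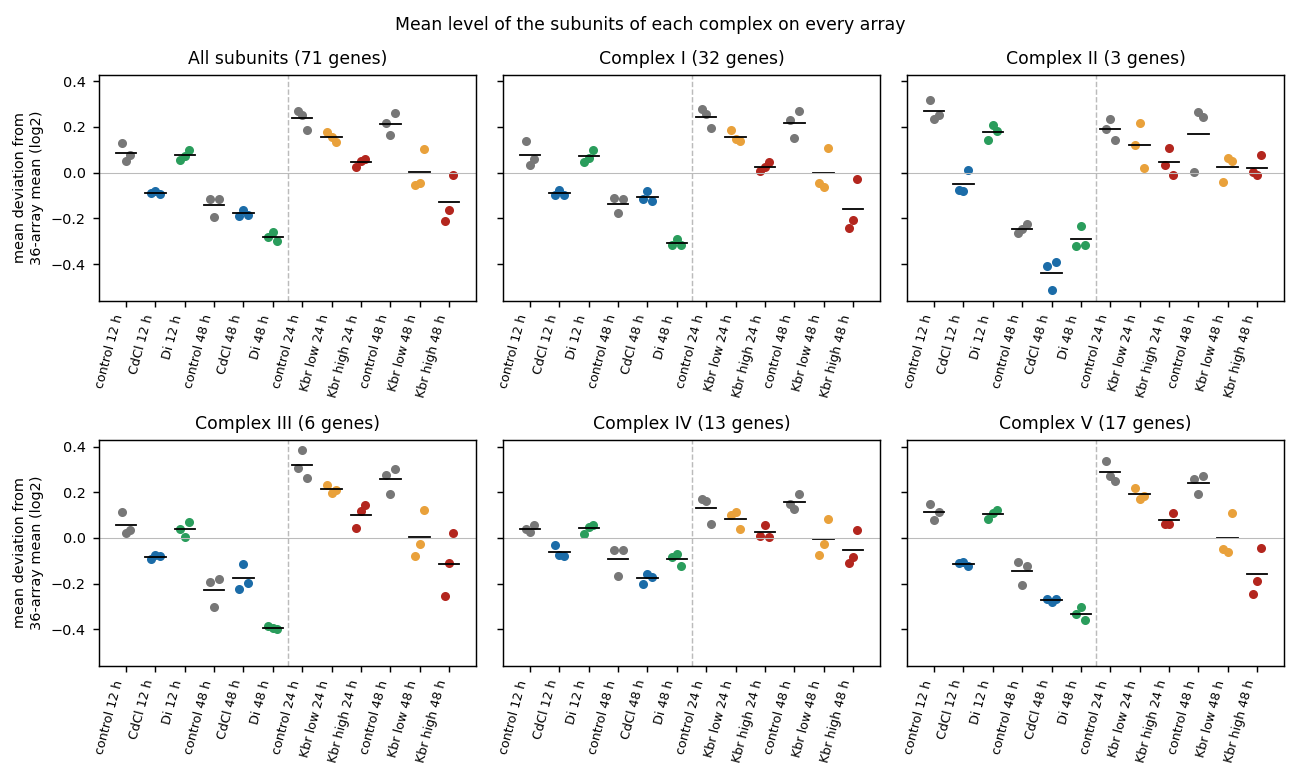
Mean deviation of the measured subunits from their own 36-array mean (log2) on each array, for all 71 and for each complex; points are replicates 1 to 3 from left to right, bars are group means and the dashed line parts the sets. Over all 71 members the mean under high dose Kbr at 48 h was -0.13 ± 0.10 (SD, n = 3) against 0.21 ± 0.05 in control, with replicate 3 of both doses the highest of its group.

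The plot of mean deviations puts the treatments beside each other. Over all 71 members the 48 h Kbr control stood at 0.21 ± 0.05 (SD, n = 3), the low dose at 0.00 ± 0.09 and the high dose at -0.13 ± 0.10. In the CdCl and Di set at 48 h, control stood at -0.14 ± 0.05, CdCl at -0.18 ± 0.01 and Di at -0.28 ± 0.02. The sets had separate controls whose levels differed, so levels are compared within a set. These are descriptions of a mean over members and carry no test.

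CdCl moved single subunits in opposite directions. At 48 h, 9 of 71 members rose and 14 fell. NDUFV3, a small accessory subunit of the flavoprotein arm of complex I, rose 2.45-fold and UQCRC1, a core protein of complex III, rose 1.76-fold. ATP5MC2 fell 1.72-fold and NDUFA5, an accessory subunit of the peripheral arm of complex I, fell 1.68-fold.

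Over all genes 20.7% were called up and 22% down (42.7% in all). Among members 12.7% were called up and 19.7% down. The member median was -0.06 against -0.01 over all genes. Complex I held 5 rises and 4 falls, complex III 2 and 2, complex IV 1 and 3 and complex V 1 and 4. Complex II held 1 fall, in SDHA. With array weights the count of 23 was 43.

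NDUFV3 read 7.79, 7.77 and 7.87 in the 48 h control and 9.05, 9.23 and 9.03 under CdCl. The 3 treated arrays stood above all other 33 arrays of the study, at 1.29 ± 0.13 (adjusted p = 2.52e-09). A second kept probe set of NDUFV3 read -0.12, so the rise rested on 1 of 2 probe sets. UQCRC1 read 10.30, 10.31 and 10.44 in control and 11.14, 11.34 and 11.01 under CdCl, with no overlap (0.81 ± 0.13, adjusted p = 8.82e-06). The other core protein of complex III, UQCRC2, went the opposite way, from 11.10, 11.12 and 11.12 to 10.79, 10.67 and 10.73 (-0.38 ± 0.07). Both core proteins of complex III passed the test, in opposite directions.

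The other rises under CdCl at 48 h in complex I were NDUFS4 (0.49), NDUFA9 (0.43), NDUFB8 (0.42) and NDUFA13 (0.37). UQCR11, a small subunit of complex III, rose by 0.36. Among the falls, NDUFA5 read 11.51, 11.87 and 11.57 in control and 11.01, 10.65 and 11.04 under CdCl (-0.75 ± 0.13). ATP5MC2 went from 12.50, 12.37 and 12.46 to 11.63, 11.73 and 11.62 (-0.78 ± 0.10), and here ATP5MC3 fell with it, from 12.74, 12.68 and 12.73 to 12.20, 12.22 and 12.13 (-0.53 ± 0.09). ATP5MC1 was not called at -0.15. Both ATP5MC2 and ATP5MC3 were clear of their control arrays.

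At 12 h, CdCl lowered 19 members and raised 1, where 30.5% of all genes were called down and 13.4% up (43.9% in all). The median over all genes was itself -0.16, the same as that of the members, and centring each array moved it by that amount. Relative to it, 1 member was lower and 1 higher, where 18.1% of all genes were lower and 18.9% higher. SDHA, the flavoprotein of complex II, read 10.45, 10.40 and 10.52 in control and 9.89, 9.71 and 9.82 under CdCl, a fall of -0.65 ± 0.07 (adjusted p = 4.96e-08) and of -0.49 relative to the median (adjusted p = 0.000199). The probe set of SDHA may also read near-identical pseudogene copies. COX6A2 was higher by 0.51 relative to the median, at a level near the floor. The count of 20 was 33 with array weights, and 12 without control replicate 1 or without CdCl replicate 3.

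The effect of CdCl differed between 12 h and 48 h in 18 members, with 15 changes upward and 3 downward, where 16.4% of all genes changed upward and 7.78% downward (24.2% in all). Centring moved the median of all genes by 0.134, and relative to it 3 members changed upward and 4 downward, where 9.44% of all genes changed upward and 11.3% downward. NDUFV3 changed by 1.44, UQCRC1 by 0.94 and NDUFA9 by 0.57. NDUFA5 changed by -0.89, COX6A2 by -0.53, ATP5MC2 by -0.52 and UQCRC2 by -0.47.

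Under Di no subunit passed the test at 12 h, and a part of them fell at 48 h, with NDUFB10 foremost. At 12 h, 0 of 71 members were called by limma, where 1.67% of all genes were called up and 4.6% down (6.27% in all). At an unadjusted p under 0.05 there were 6, 1 higher and 5 lower, and 2 passed the adjusted test without control replicate 1 and 7 with array weights. The member median was -0.02 against -0.07 over all genes.

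At 48 h Di lowered 20 members and raised 2, where 23.9% of all genes were called down and 19.1% up (43% in all). Among members 28.2% fell and 2.82% rose, and their median was -0.12 against -0.01. Centred arrays gave 14 falls (19.7%) and 4 rises (5.63%), against 21.1% and 23.2% of all genes. Complex I held 11 falls and 2 rises, complex III 3 falls, complex V 6 falls and complexes II and IV none of either. The subunits of complex IV lay between -0.23 and 0.28.

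NDUFB10, a subunit of the membrane arm of complex I, read 10.22, 9.99 and 9.98 in the 48 h control and 9.15, 9.32 and 9.27 under Di. The 3 treated arrays were the lowest of all 36 for this gene, at -0.82 ± 0.15 (adjusted p = 4.43e-05), and a second kept probe set read -0.85. CdCl left it at 10.13 on all 3 arrays and high dose Kbr at 10.53, 10.38 and 10.90, neither of them called. NDUFB2 (-0.55 ± 0.10) and NDUFB11 (-0.52 ± 0.08), from the same arm, also fell under Di. UQCRB (-0.47 ± 0.09) and UQCR10 (-0.46 ± 0.12), small subunits of complex III, fell as well, without the core proteins UQCRC1 and UQCRC2, which were not called at 0.20 and -0.06. ATP5F1A fell by -0.39 ± 0.08, from 13.71, 13.73 and 13.73 to 13.37, 13.32 and 13.30. The rises were NDUFA8 (0.32) and NDUFA9 (0.18).

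The effect of Di differed between 12 h and 48 h in 13 members, 12 downward and 1 upward, where 13.9% of all genes changed downward and 15.1% upward (29% in all). NDUFB10 changed by -1.004 ± 0.21, NDUFA2 by -0.58, NDUFB2 by -0.58 and UQCR10 by -0.53, and NDUFA9 by 0.33. The count of 13 was 26 with array weights, 7 without control replicate 2 at 12 h and 8 without control replicate 3 at 48 h.

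CdCl and Di shared their controls and could be set directly against each other. At 48 h, 20 members were higher under CdCl than under Di and 6 lower, where 20.5% of all genes were higher and 17.1% lower (37.6% in all). Complex I held 14 of the 20, and centred arrays gave 14 and 6 members, where 18.4% of all genes were higher and 19.4% lower. NDUFV3 differed by 1.25 ± 0.13, NDUFB10 by 0.88 ± 0.15, NDUFA13 by 0.62 ± 0.10 and UQCRC1 by 0.62 ± 0.13. NDUFA5 (-0.49), ATP5MC2 (-0.42), COX6C (-0.41) and COX7A2L (-0.37) were lower under CdCl. NDUFA13 was the 1 member called in opposite directions against control, at 0.37 under CdCl and -0.24 under Di. At 12 h 1 member was higher and 16 lower under CdCl, where 13.6% of all genes were higher and 22.1% lower (35.6% in all), and centred arrays left 1 and 3, where 16.5% of all genes were higher and 16.2% lower. That count of 17 was 39 with array weights, 11 in a fit of the compared groups only, 10 without CdCl replicate 3 and 11 without Di replicate 2.

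At 48 h all 3 compounds lowered 6 members, ATP5F1A, ATP5F1C, ATP5MC2, NDUFA2, NDUFB1 and NDUFB2, and raised 0. ATP5F1A was at -0.36 under CdCl, -0.39 under Di and -0.41 under high dose Kbr, and ATP5F1C, the gamma subunit that turns within the head, was at -0.30, -0.30 and -0.31. NDUFB1 was at -0.31, -0.49 and -1.42 and NDUFA2 at -0.49, -0.50 and -0.73. CdCl and Di share their control, so calls shared by them are a description, and the share of all genes lowered by all 3 was not computed. Another kept probe set read the opposite direction for ATP5F1C and NDUFB1 under Di. The same held for ATP5F1C and NDUFB2 under high dose Kbr. With centred arrays ATP5F1C passed under none of the 3 compounds (-0.27, -0.23 and -0.21) and NDUFB1 not under CdCl (-0.29, adjusted p = 0.0503).

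The effects of the sets were compared as differences of differences at 48 h. The effect of CdCl was higher than that of high dose Kbr in 27 members and lower in 3, where 27.9% of all genes were higher and 22.3% lower (50.1% in all). NDUFS7 differed by 2.07 ± 0.21 (adjusted p = 7.57e-09), NDUFA7 by 1.39 ± 0.18, ATP5F1D by 1.27 ± 0.44 and NDUFV1 by 1.27 ± 0.23. ATP5MC3 (-0.46), NDUFB6 (-0.33) and COX6C (-0.32) were lower. The effect of Di was higher than that of high dose Kbr in 20 members and lower in 3, where 23.6% of all genes were higher and 19.9% lower (43.5% in all). NDUFS7 differed by 1.64 ± 0.21 and NDUFA7 by 1.32 ± 0.18, while NDUFB10 (-0.70), NDUFB9 (-0.52) and NDUFB11 (-0.48) were lower. The sets also differ in their controls and in the beta-actin gap, whose part in this was not tested.

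Subunit levels also moved with time in vehicle-treated cells. In the controls of CdCl and Di, 34 members were lower and 4 higher at 48 h than at 12 h, where 27.3% of all genes were lower and 18.3% higher (45.7% in all). The member median was -0.22 against -0.07 over all genes, and centred arrays gave 21 lower and 4 higher, where 22.3% of all genes were lower and 23.4% higher. ATP5MC1 went from 9.20, 9.07 and 9.04 to 7.77, 7.75 and 7.62 (-1.39 ± 0.14), and SDHA from 10.45, 10.40 and 10.52 to 9.50, 9.57 and 9.58 (-0.90 ± 0.07). COX7A2L, which joins complexes III and IV in supercomplexes, went the other way, from 10.99, 10.98 and 11.05 to 11.77, 11.61 and 11.91 (0.76 ± 0.09). Each of these was clear of overlap.

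In the controls of Kbr 2 members were lower and 1 higher at 48 h than at 24 h, where 7.16% of all genes were lower and 5.08% higher (12.2% in all). COX7A2L was again higher (0.37 ± 0.09), and NDUFA9 (-0.27 ± 0.06) and NDUFS6 (-0.25 ± 0.08) were lower. With the replicate block 8 members were called, and centred arrays gave 1 lower and 3 higher, where 5.27% of all genes were lower and 5.86% higher. The count of 3 was 0 in a fit of the compared groups only and 1 without control replicate 3 at 24 h. The fall of ATP5MC1 seen in the other controls was -0.19 here and was not called, over a different interval.

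Genes of mitochondrial biogenesis and of mtDNA expression moved both ways under Kbr, with most of those called at 48 h higher. Of 19 measured genes of this list (20 listed), 13 (68.4%) rose and 3 (15.8%) fell under high dose Kbr at 48 h, with a median of 0.54, where 27.3% of all genes rose and 34.5% fell. Under the low dose at 48 h 12 (63.2%) rose and 1 (5.26%) fell, against 23.8% and 23.2% of all genes. At 24 h 6 (31.6%) rose and 1 (5.26%) fell under the low dose, against 6.93% and 8.28%. The high dose at 24 h raised 7 (36.8%) and lowered 2 (10.5%), against 15.4% and 25.3%. TFAM, which packs and transcribes mitochondrial DNA, read 10.42, 10.28 and 10.39 in control, 11.26, 11.13 and 11.21 under the low dose and 11.98, 11.70 and 11.61 under the high dose (1.40 ± 0.14, adjusted p = 9.8e-10). TWNK, the mitochondrial helicase, read 7.18, 7.21 and 7.21 in control and 8.75, 8.47 and 8.50 under the high dose (1.38 ± 0.16). PPARGC1A, the coactivator known for driving mitochondrial biogenesis, went the other way, from 8.47, 8.55 and 8.09 to 7.02, 7.38 and 5.91 (-1.60 ± 0.25). The 3 groups of TFAM did not overlap, and replicate 3 of the high dose was the lowest array of PPARGC1A in the Kbr set.

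**Figure D4:**
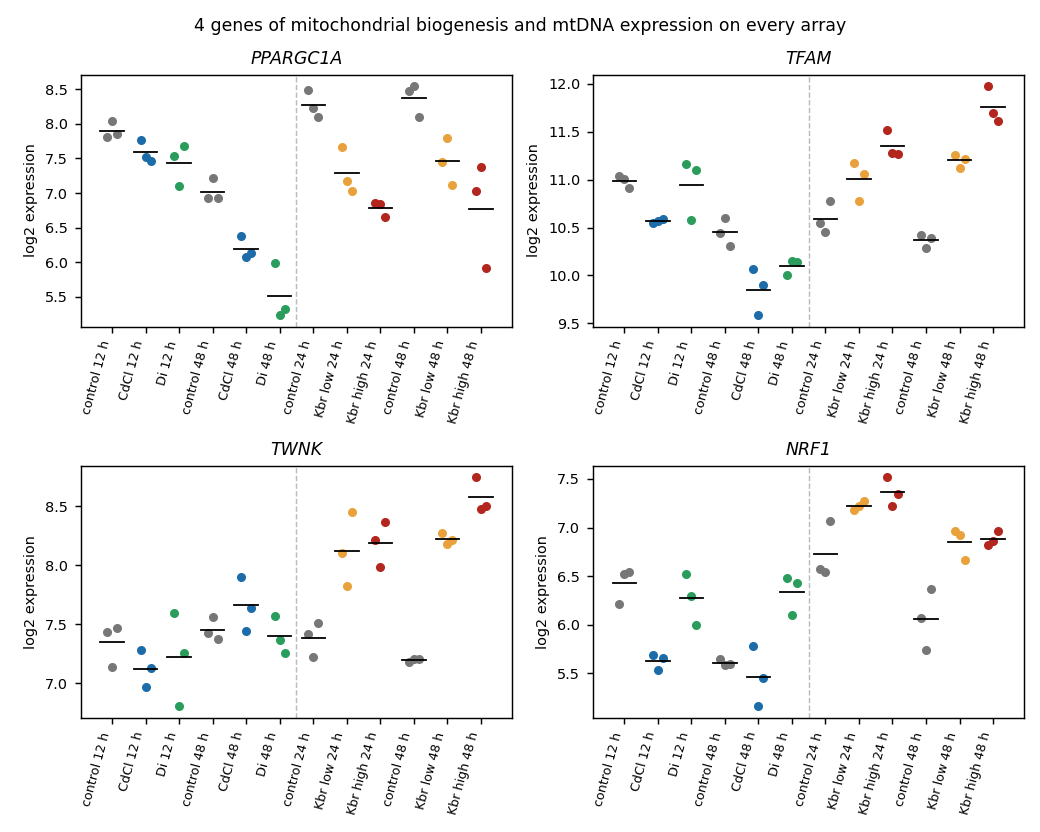
Log2 expression of PPARGC1A, TFAM, TWNK and NRF1 on each of the 36 arrays (points, replicates 1 to 3 from left to right) with group means (bars); the dashed line parts the CdCl and Di set from the Kbr set and the vertical axes do not start at 0. PPARGC1A lies below control under each compound at 48 h, whereas TFAM rises with the dose of Kbr to 11.61 to 11.98 and lies at 9.59 to 10.07 under CdCl at 48 h.

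TFAM moved in opposite directions between the sets. It fell under CdCl (-0.60) and Di (-0.35) at 48 h, and rose under Kbr at both doses and times (0.41 to 1.40). The effect of CdCl at 48 h differed from that of high dose Kbr by -1.99 (past the test). Under CdCl at 12 h it lay at -0.42 and, relative to the median of all genes, at -0.26 (adjusted p = 0.0586). PPARGC1A fell under CdCl (-0.83) and Di (-1.50) at 48 h and in all 4 Kbr comparisons (-0.98, -0.91, -1.48 and -1.60). NRF1, a factor that acts on many subunit promoters, rose under Di at 48 h (0.73) and in all 4 Kbr comparisons (0.50 to 0.82) and fell under CdCl at 12 h (-0.80, and -0.64 relative to the median). In this list CdCl at 48 h raised 2 (10.5%) and lowered 4 (21.1%), against 20.7% and 22% of all genes. Di at 48 h raised 4 (21.1%) and lowered 3 (15.8%), against 19.1% and 23.9%.

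Assembly factors, which build the complexes without staying in them, moved both ways. Of 46 measured (47 listed), 17 rose and 13 fell under high dose Kbr at 48 h. SURF1 (-1.70 ± 0.12) and PET100 (-1.49 ± 0.18), both needed for complex IV, fell, and TMEM70 (1.22 ± 0.09), which helps to build the ATP synthase, rose. Under CdCl at 48 h 13 rose and 6 fell, led by UQCC1 (1.75 ± 0.14) and UQCC3 (-1.01 ± 0.16), both factors for complex III, and UQCC1 was already up at 12 h (1.19). Under Di at 48 h 13 rose and 10 fell, led by SDHAF3 (-1.24) and COX20 (-1.22). The shares that rose were 37.0%, 28.3% and 28.3% in these 3 comparisons, against 27.3%, 20.7% and 19.1% of all genes. The shares that fell were 28.3%, 13% and 21.7%, against 34.5%, 22% and 23.9%.

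Genes that feed the chain were also read under high dose Kbr at 48 h, where 34.5% of all genes fell and 27.3% rose. Of 21 measured genes of ubiquinone synthesis and of other donors to ubiquinone, 8 (38.1%) fell and 3 (14.3%) rose, with PRODH (-3.17 ± 0.35), the proline dehydrogenase, COQ9 (-1.28 ± 0.11) and COQ2 (-1.28 ± 0.09) in front. Of 11 measured enzymes of the tricarboxylic acid cycle 6 (54.5%) fell and 3 (27.3%) rose, among them 2 subunits of the NAD-linked isocitrate dehydrogenase in opposite directions, IDH3G at -1.45 and IDH3A at 0.98. Of 7 measured genes for the exchange of ATP, ADP and phosphate 4 (57.1%) fell and 2 (28.6%) rose, with SLC25A4, an ATP/ADP carrier, at -0.63. PRODH fell in 7 of these comparisons, from -1.04 under CdCl at 48 h to -3.17.

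Some proteins of the complexes lie outside the name rule. Of 9 such genes with cytochrome c, all measured, 3 (33.3%) rose and 4 (44.4%) fell under high dose Kbr at 48 h, against 27.3% and 34.5% of all genes. DMAC2L, a coupling factor of the ATP synthase, read 10.46, 10.65 and 10.48 in control and 8.31, 8.42 and 8.28 under the high dose (-2.19 ± 0.12, adjusted p = 1.6e-14). CYCS, cytochrome c itself, rose under high dose Kbr (0.62), CdCl (0.47) and Di (0.30) at 48 h. ATP5IF1, the inhibitor of the ATP synthase, fell under the same treatments by 0.78, 0.34 and 0.71 on the log2 scale. CYC1, cytochrome c1 of complex III, was called under CdCl at 12 h (-0.48), though not relative to the median (-0.32, adjusted p = 0.0689), and in none of the other 7 comparisons with control. The 13 subunits coded by mitochondrial DNA were listed and 0 had a measured probe set, so they were not analysed here.

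Some features of the members that the rule did not use were read off. Of the 9 measured members on chromosome 19, among them NDUFS7, NDUFA7 and ATP5F1D, 8 fell under high dose Kbr at 48 h (88.9%, median -0.67), against 33 of the other 62 (53.2%, median -0.22). Over all genes on chromosome 19, 29.2% of 763 fell, against 34.9% of 10322 elsewhere. Under CdCl at 48 h 1 of the 9 fell and under Di 2. The chromosome was chosen after these values were seen, so this has no test. By mean level, the median under high dose Kbr at 48 h was -0.24 for the 36 members above 12, -0.33 for the 25 between 10 and 12, and -0.24 for the 10 at or below 10.

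Called in none of the 8 comparisons with control were 13 members, ATP5F1B, ATP5MJ, ATP5PF, COX4I1, COX4I2, COX5B, COX7A2, NDUFB4, NDUFB6, NDUFB7, NDUFS6, NDUFV2 and SDHD. They came from complexes I, II, IV and V. Called past 2-fold in any of the 8 were 8 members, the 7 falls under high dose Kbr at 48 h and the rise of NDUFV3 under CdCl at 48 h. For neither count was the share over all genes computed, so neither sets the members apart from other genes. Among members with several kept probe sets (28), probe sets of some read opposite directions. In NDUFB2 a dimmer probe set read 0.73 under high dose Kbr at 48 h against -0.61, and in NDUFB1 one read 0.70 under Di at 48 h against -0.49. Members with such pairs in at least 1 comparison also included ATP5F1C, ATP5PB, COX5B, NDUFC1, NDUFS1, NDUFV3, SDHC, UQCR11 and UQCRB.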

How the data were processed

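Total RNA of HK-2 cells was turned into biotinylated cRNA and read on single-colour arrays, per the labels' protocols. Each deposited value is the log2 level of 1 probe set on 1 array after GCRMA, which the authors ran, per the submitters' processing notes. The GCRMA version was not given in the sources used here. GCRMA corrects background and normalizes between arrays, so shifts common to most genes are partly lost and differences of dim genes shrink. Of 54675 probe sets, 41091 had 1 gene, 1801 several (not used, 12 of them with a member) and 11721 none, with 62 control probe sets left out. A probe set was kept above 4 on 3 or more of the 36 arrays, and the one with the highest mean stood for its gene. Probe sets of genes with near-identical copies are uncertain.

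A single linear model with a mean for each of the 12 groups was fitted to all arrays (lmFit and eBayes of limma 3.58.1, R 4.3.3). P-values were adjusted over 11092 genes by Benjamini-Hochberg, and calls had an adjusted p under 0.05. SEs are the model's. The fit was repeated with array weights, with the replicate block, on the compared groups only, without each array in turn, on centred or quantile-normalized arrays, with a variance trend, with all kept probe sets averaged, and with the filter dropped or raised to 6. In the Kbr set same-numbered arrays deviated together in 45 of 45 pairs (r = 0.218 to 0.701), so the numbers were taken to pair them, on the data alone. In the other set 8 of 45 pairs did. The pairing entered only the fit with the replicate block, and the main calls and SEs come from the fit without it. For Kbr at 48 h the block gave 49 members past the test for the high dose and 43 for the low dose, against 45 and 32 without it. The main fit also shares 1 estimate of spread over both sets, and the counts depend on that choice. Fits of the compared groups only gave 27 and 10 for these 2 Kbr comparisons. For CdCl at 12 h they gave 28, against 20 in the main fit. In simulated data, 200 of 11092 genes were changed. For CdCl at 12 h, 34.3% of those changed by 0.5, 83.6% by 1 and 100.0% by 2 were recovered. At a change of 1, recovery ranged from 79.1% (high dose Kbr at 48 h) to 91.0% (Di at 48 h). In the real data 43.9% of all genes were called for CdCl at 12 h, so the simulated rates do not carry over to it.

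Members and gene lists were chosen with earlier results of these data known. Genes given with full statistics were up to 3 per complex with the largest passing change in each comparison with control, the 4 largest each way elsewhere, index genes and the 3 largest passing genes of each list, and members otherwise named are given by their values. The index members SDHB, UQCRFS1 and UQCRH were not analysed here, and NDUFA4 carries another symbol on the platform and lies outside the name rule.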

Additional observations from a re-analysis of the deposited data

Results flagged for a closer look

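These are the results in which the effect of a treatment differed between times or between sets, by limma's test of that difference with Benjamini-Hochberg adjustment over all genes. Groups held 3 arrays, too few to test a single array as an outlier.

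The effect of CdCl differed between 48 h and 12 h in 18 members (25.4%), against 24.2% of all genes. Before centring, the largest were NDUFV3 (1.57), UQCRC1 (1.08), NDUFA9 (0.71) and NDUFS4 (0.49) upward and NDUFA5 (-0.76), COX6A2 (-0.40) and UQCRC2 (-0.34) downward. The median over all genes was itself 0.12. With centred arrays 3 members changed upward and 4 downward in place of 15 and 3, where 9.44% of all genes changed upward and 11.3% downward. The effect of Di differed between 48 h and 12 h in 13 members (18.3%), against 29% of all genes. NDUFB10 (-1.004), NDUFA2 (-0.58), NDUFB2 (-0.58) and UQCR10 (-0.53) changed downward and NDUFA9 (0.33) upward. The effect of high dose Kbr differed between 48 h and 24 h in 10 members (14.1%), against 15% of all genes. NDUFS7 (-1.27), NDUFB1 (-0.76), ATP5MC2 (-0.76) and NDUFV1 (-0.71) changed downward and NDUFV3 (0.57) and NDUFB9 (0.28) upward.

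The effect of CdCl at 48 h differed from that of high dose Kbr in 30 members (42.3%), against 50.1% of all genes. NDUFS7 (2.07), NDUFA7 (1.39), ATP5F1D (1.27) and NDUFV1 (1.27) were higher and ATP5MC3 (-0.46), NDUFB6 (-0.33) and COX6C (-0.32) lower. The effect of Di at 48 h differed from that of high dose Kbr in 23 members (32.4%), against 43.5% of all genes. NDUFS7 (1.64), NDUFA7 (1.32), NDUFV1 (1.11) and NDUFB1 (0.94) were higher and NDUFB10 (-0.70), NDUFB9 (-0.52) and NDUFB11 (-0.48) lower.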

How the results depend on the processing

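Counts are of members past the test. Centred arrays gave 2 for CdCl at 12 h (20 as reported), 1 for Di at 12 h (0), 1 for low dose Kbr at 24 h (3), 8 for high dose Kbr at 24 h (22), 0 and 7 for high against low dose at 24 h and 48 h (1 and 11), 4 for CdCl against Di at 12 h (17), 7 for the CdCl effect over time (18) and 25 for the CdCl and Di controls over time (38). Array weights gave 33 for CdCl at 12 h, 43 at 48 h (23), 7 for Di at 12 h, 3 for the doses at 24 h, 39 for CdCl against Di at 12 h and 26 for the Di effect over time (13). A fit of the compared groups only gave 0 for low dose Kbr at 24 h, 10 at 48 h (32), 11 and 27 for the high dose at 24 h and 48 h (22 and 45), 0 and 2 for the doses at 24 h and 48 h, 11 for CdCl against Di at 12 h, 2 for the high dose effect over time (10) and 0 for the Kbr controls (3). The replicate block gave 31 for CdCl at 12 h and 1 for Di at 12 h, where numbers do not pair the arrays (3 of 18 closest to their own number), 7 for low dose Kbr at 24 h, 6 for the doses at 24 h and 8 for the Kbr controls, and moved no other count of members by over 1.5 times. No filter gave 2 for Di at 12 h and 2 for the doses at 24 h. A filter at 6, a variance trend and quantile normalization each gave 1 for Di at 12 h, quantile normalization 0 for the doses at 24 h, and the mean of probe sets 1 for low dose Kbr at 24 h. That mean reversed NDUFS1 under CdCl at 48 h (-0.28) and COX4I1 under low (0.25) and high dose Kbr (0.59) at 48 h.

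Leaving out 1 array gave 12 to 19 for CdCl at 12 h and 19 to 23 at 48 h, 0 to 2 and 18 to 22 for Di, 0 to 4 and 23 to 34 for low dose Kbr, 15 to 26 and 38 to 44 for the high dose, 0 to 1 and 8 to 11 for the doses, and 10 to 18 and 22 to 25 for CdCl against Di. For the effects over time it gave 12 to 18 (CdCl), 7 to 12 (Di) and 3 to 10 (high dose Kbr), against the high dose 25 to 32 (CdCl) and 19 to 28 (Di), and for the controls 31 to 33 (CdCl and Di) and 1 to 3 (Kbr). Of the alternatives of 210 gene results, 3043 stayed on the same side of the threshold, 223 lost the call and 70 gained one. Another 3 reversed direction with a call in at least 1 of the fits compared. A change of direction where neither fit gave a call was counted among the 3043. With 3 arrays a group and background signal in dim genes, small differences of COX6A2, COX4I2 and ATP5MC2P1 are least certain.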
